A study of Homo sapiens with 42 samples.

Results

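The m6A peaks described here are those of control HepG2 cells that were found again in every other peak list of the study. A control peak is called a shared peak when at least 1 base of its blocks lay in a peak on the same strand in each of the 6 other lists. Blocks are the exonic parts of a peak, with introns left out. Of 33672 control peaks, 15404 (45.7%) were shared, and the remaining 18268 are called the other control peaks. The peak calls of the 7 lists chose the shared peaks, so their presence, width and enrichment are given as descriptions without a test.

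N6-methyladenosine (m6A) is a methyl mark that is placed on adenosines of nascent messenger RNA. METTL3 is the catalytic subunit of the nuclear writer complex, METTL14 pairs with it and helps to hold the RNA, and WTAP is an adaptor that keeps the pair in nuclear speckles. The mark is known for clustering in long internal exons, around stop codons and in 3' untranslated regions, and reader proteins of the YTH family tie it to RNA decay, splicing and translation. SETD2 is not part of this complex. It trimethylates lysine 36 of histone H3 on transcribed genes.

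HepG2 is a cell line from a human hepatocellular carcinoma. In m6A-seq, fragmented RNA is enriched by an m6A antibody (immunoprecipitation, IP) and sequenced beside unselected RNA, the input. All groups were HepG2 cells infected with lentivirus and selected with puromycin, and they differed in the short hairpin RNA (shRNA) they carried. The shMETTL3, shMETTL14, shWTAP and shSETD2#1 cells (METTL3, METTL14, WTAP and SETD2 knockdown) belong with a non-specific control shRNA, and the shSETD2#2 cells are set here against the other non-specific control, which the labels number 2. Each of these 7 conditions had 3 input and 3 IP libraries, 42 in all, and the labels do not say whether the libraries came from separate cultures. Each list covers replicates 1 to 3 together, so a condition has a single list, no value has a replicate error, and read depth is unknown. The list of the first control is called the control list and that of the other the second control list. The first set means the METTL3, METTL14, WTAP, SETD2 #1 and control lists. The residual amount of each targeted protein or transcript cannot be read from peak lists. Gene names are not given, because the peak tables hold versioned Ensembl identifiers only, and 0 of them could be paired with a symbol in the tables used here. Peaks are therefore named by position in hg19, and no sequence is shown.

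The 6 other lists held between 28645 (SETD2 #1) and 31249 peaks (second control). The METTL3 list overlapped 77.2% of the control peaks, METTL14 overlapped 70.2%, WTAP 71.2%, SETD2 #1 73.0%, SETD2 #2 65.6% and the second control 71.4%. Presence in all of them, at 45.7% (95% exact Clopper-Pearson interval 45.2 to 46.3%), was the most frequent outcome. Only 2308 control peaks (6.85%) were seen in none of the other lists, and between 2322 and 4060 peaks were seen in each number of lists from 1 to 5. Intervals here and below cover counting error only, and peaks of a gene are not independent.

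**Figure D1:**
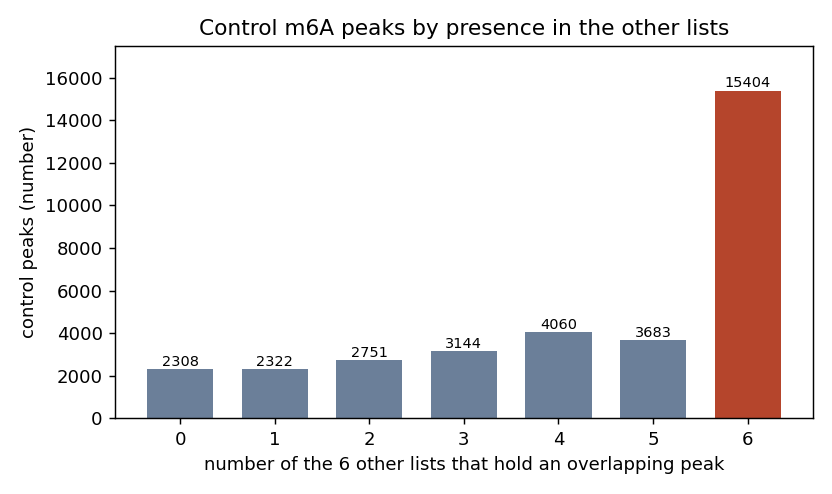
Control m6A peaks (vertical axis, number) by how many of the 6 other lists held an overlapping peak (horizontal axis). The last bar holds the 15404 shared peaks, and each of the other bars holds between 2308 and 4060.

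Peaks that missed only 1 list lay between the shared and the weakest peaks. There were 3683 of them, with a median width of 267 bases, a median fold enrichment (IP over input, the authors' ratio) of 5.91 and a median log10 p of -10.1. The missing list was SETD2 #2 in 1453 cases (39.5%), METTL14 in 601 (16.3%), WTAP in 586 (15.9%), the second control in 508 (13.8%), SETD2 #1 in 367 (9.96%) and METTL3 in 168 (4.56%). The SETD2 #2 list also overlapped the smallest share of all control peaks. In 70.3% of these near misses the same gene had another peak in the missing list. Of all 14570 genes with a control peak, 66.9% had a peak in all 6 other lists. A share like the 70.3% was not computed over all control peaks.

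Few peaks stood close to the limit of 1 base, but a much stricter limit kept fewer of the 15404. With at least 50% of the control peak covered by 1 peak 9545 were shared, and with at least 50% of both peaks 8932. Only 38 shared peaks (0.247%) had a list in which a single base was covered, and 77 (0.500%) a list with at most 30. An example is the 60-base peak at chromosome 16 from 728741 to 728800 (minus strand), which lay whole in 5 lists and by 1 base in the second control list. Just outside the limit, 43 of the 3683 near misses had a peak of the missing list within 30 bases, and 3 within 10.

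Shared peaks were broad. Their median width was 449 block bases, against 180 in the other control peaks, with interquartile ranges of 300 to 690 bases in shared peaks and 121 to 241 bases in other peaks. Widths of at least 1000 bases were found for 1921 shared peaks (12.5%) and for 30 other peaks (0.164%). Widths of at most 150 bases were found for 260 shared peaks (1.69%) and for 6462 other peaks (35.4%). Split into 5 equal classes by width, the shared fraction was 3.88% in the narrowest class, then 17.5%, 45.7% and 69.4%, and 92.2% in the broadest, where widths began at 511 bases. Together shared peaks held 70.3% of the block bases of the control list. A broad peak has more bases that can be met by a peak of another list, so this gradient is partly built into the rule.

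**Figure D2:**
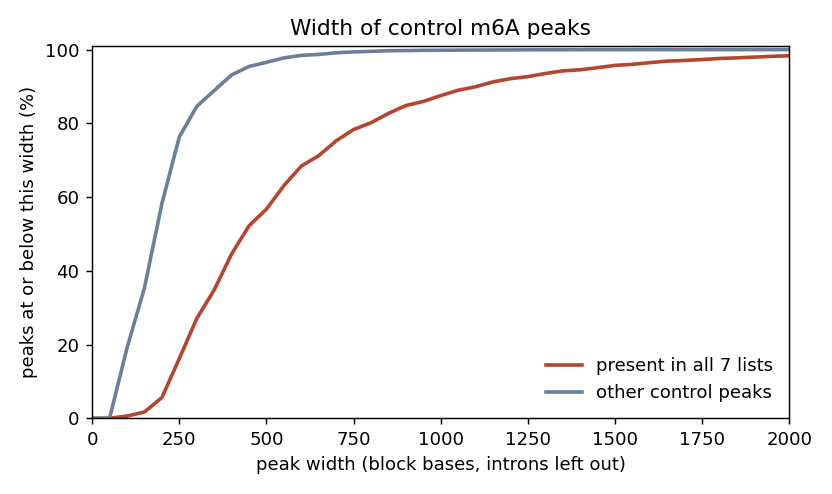
Cumulative share of peaks (vertical axis, percent) at or below each width in block bases (horizontal axis, drawn up to 2000) for shared peaks and for the other control peaks. The medians are 449 bases in shared peaks and 180 bases in other control peaks.

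More shared peaks crossed exon junctions. Of the shared peaks 51.7% (50.9 to 52.5%) had 2 or more blocks, against 27.9% (27.3 to 28.6%) of the other control peaks. There were 1932 shared peaks (12.5%) and 913 other peaks with 3 blocks, and peaks of 5 or more blocks made up 5.10% of the shared and 0.531% of the other peaks. Width and blocks went together, yet within the 5 width classes there was still an excess of multi-block peaks, of 8.16 to 13.9 percentage points. The broadest class ran from 511 to 12796 bases, so width was not fully matched. Among peaks of a single block the median width was 416 bases in shared peaks and 179 bases in other peaks, so breadth did not need several exons. Within classes by p-value the difference was smaller than the 23.8 percentage points found without classes. In 5 classes by p-value, from the worst to the best, the excess of multi-block peaks was 16.6, 6.61, 6.42, 7.06 and -2.66 points. The mean over classes was 2.90 points when weighted by shared peaks, 6540 of which were in the best class, and 6.80 points with each class weighted alike. With the second control list in the place of the control list it was 10.7 points. The longest block of a peak had a median of 360 bases in shared peaks and 156 bases in the others, and introns inside multi-block peaks had medians of 856 and 804 bases.

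The exon parts of a multi-block peak were placed differently. At least 50% of the bases lay in the block at the 3' end in 37.1% of shared multi-block peaks and in 34.4% of the others. For the block at the 5' end the shares were 33.4% in shared peaks and 47.0% in other peaks. Other multi-block peaks thus leaned to their 5' exon, and shared ones were nearly balanced. In a peak of 2 blocks an end block always holds at least 50% of the bases. Such peaks were 4455 of 7966 shared and 3878 of 5104 other multi-block peaks. The shares were not split by block number, so the groups are not matched in it.

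The broadest shared peaks covered long exonic stretches in every list, though not always as 1 peak. The broadest, on chromosome 8 from 144990124 to 145008585 (minus strand, gene ENSG00000178209.14), had 12796 bases in 22 blocks in the control list. Its best matching peak had 12766 bases in the METTL3 list, 13725 in METTL14, 12946 in WTAP, 9859 in SETD2 #1, 8750 in SETD2 #2 and 9649 in the second control. The SETD2 #2 list had the narrowest match and METTL14 the broadest. A neighbour on the same chromosome, from 144940066 to 144952632 (minus strand, 3 blocks), was the next broadest with 7427 bases, of which 94.8% lay in peaks of all 7 lists. The other broadest ones lay on chromosome 16 from 31087602 to 31093149 (plus strand, 1 block of 5548 bases), on chromosome 16 from 89345483 to 89350852 (minus strand, 1 block of 5370 bases) and on chromosome 1 from 27861115 to 27878699 (minus strand, 5241 bases in 2 blocks). The part common to all lists was 86.5%, 79.9% and 52.1% of these peaks. It can lie in more than 1 peak of a list. In SETD2 #2 and the second control the best match of the 7427-base peak had 2816 and 5271 bases. For the 5548-base peak it had 2819 and 2879, for the 5370-base peak 4591 and 4441, and for the 5241-base peak 1228 and 1139. Matches in the first set could be narrower too. In METTL3, METTL14, WTAP and SETD2 #1 the 7427-base peak had matches of 7397, 7397, 7427 and 7367 bases. In the same order the 5548-base peak had 4678, 4648, 4678 and 5518, and the 5370-base peak 5040, 3000, 4830 and 3241. The 5241-base peak had 2336, 3894, 2306 and 3803.

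The 5 shared peaks with the most blocks differed in how much of them was common to all lists. The shared peak with the most blocks, on chromosome 3 from 48613101 to 48620463 (minus strand), ran over 30 blocks and 1437 bases in the control list. Its match had 1437 bases in the METTL3 list, 2663 in METTL14, 3232 in WTAP, 271 in SETD2 #1, 420 in SETD2 #2 and 420 in the second control. It was thus at least as broad in the METTL3, METTL14 and WTAP lists as in the control list and far narrower in the other 3, and only 16.8% of it was common to all. The next, with 29 blocks on chromosome 21 from 46876698 to 46916457 (plus strand), kept 58.8% in common, and that with 28 blocks on chromosome 20 from 61447596 to 61462588 (plus strand) kept 69.9%. One with 26 blocks on chromosome 1 from 40766338 to 40777879 (minus strand) kept 58.8%, and the broadest peak, with 22 blocks, 81.8%. The median over all shared peaks was 58.8%.

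Place within the gene was not used to choose the shared peaks. Each gene's control peaks were ordered along its strand, since transcript regions such as untranslated regions were not analysed here. The 3'-most peaks were shared most often, 4353 of 8596 (50.6%, 49.6 to 51.7%), followed by the 5'-most with 3935 of 8596 (45.8%, 44.7 to 46.8%), peaks between them with 43.4% of 10506 and only peaks of their gene with 42.8% of 5974. The share over all control peaks was 45.7%. Seen from the peaks, 33.9% of shared peaks in genes with 2 or more control peaks were 3'-most, against 28.6% of the other peaks in such genes, while 5'-most peaks made up 30.6% of shared and 31.4% of other peaks. The 3'-most share was above the 5'-most share in genes with 2, 3, 4, 5, 6 and 8 or more control peaks (49.8% for the 3'-most against 44.5% for the 5'-most with 2 peaks), but not in the 190 genes with 7 peaks (48.4% for the 3'-most against 50.5% for the 5'-most).

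The order of the ends depended on what peaks were compared with. The excess of 3'-most peaks among shared peaks, 5.31 percentage points, was 1.66 points when the second control list was counted and 2.46 when the first set alone decided. Within the 5 width classes the 3'-most share was higher in shared than in other control peaks in every class, by 2.43 to 7.37 percentage points. Within 5 classes by the control p-value the difference was -6.42, 1.26, -6.08 and -4.43 points from the worst class upwards and 10.5 points in the class of the best p-values. Its mean over classes was 1.97 points when weighted by shared peaks and -1.03 points with each class weighted alike, so its direction rests on the weighting. The median log10 p was -17.1 for all 3'-most and -9.48 for all 5'-most control peaks, and the part of this in the result was not tested. In the class with log10 p from -68.6 to -19.3, 74.4% of 3'-most and 86.0% of 5'-most peaks were shared.

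**Figure D3:**
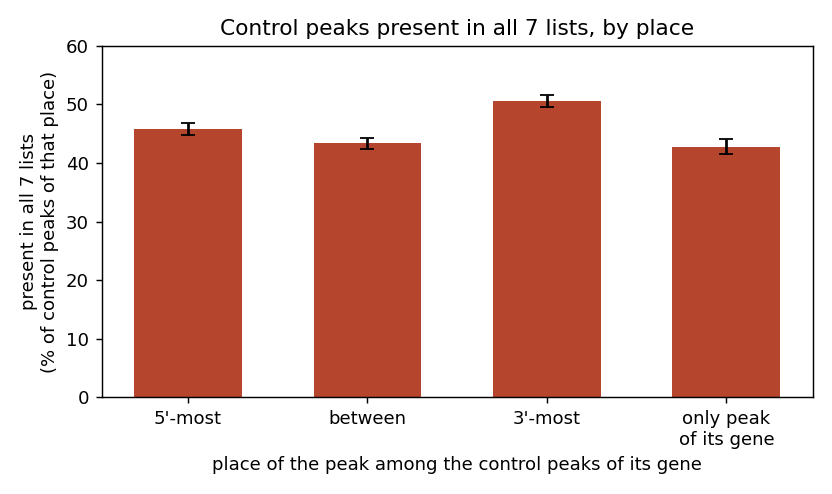
Share of control peaks that were present in all 7 lists (vertical axis, percent, bars from 0) by the place of the peak among the control peaks of its gene. Error bars are exact 95% binomial intervals. The 3'-most peaks stand at 50.6% and the 5'-most at 45.8%.

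Shared peaks at the 2 ends of a gene had different shapes. At the 5' end 63.0% of shared peaks had several blocks, against 35.4% of other peaks there, and at the 3' end the values were 37.5% and 16.5%. Median fold enrichment in the control list was 14.1 for shared 5'-most peaks and 8.02 for shared 3'-most peaks. The other control peaks had 7.71 at the 5' end and 3.49 at the 3' end. The order of the ends was therefore the same in shared and other peaks.

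Genes were shared more widely than peaks. Of 14570 genes with a control peak, 9357 (64.2%) held at least 1 shared peak, and 9749 had a peak, at any place, in all 7 lists. Of these 9749 genes, 9306 (95.5%) held a shared peak, and 443 (4.54%) had peaks in every list without a control peak that met all of them. In 3894 genes (26.7%) every control peak was shared, of which 2556 had a single control peak, 949 had 2, 280 had 3 and 109 had 4 or more. A further 5463 genes (37.5%) combined shared and other peaks. Genes with a shared peak held 1 in 5535 cases, 2 in 2417, 3 in 915 and 4 or more in 490.

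A gene with more control peaks had more chances of a shared one. The share of genes with a shared peak was 42.8% for genes with 1 control peak, 69.3% with 2, 82.4% with 3 and 96.3% with 8 or more. The share of peaks that were shared did not follow this and stayed between 42.8% and 47.4% whatever the number of peaks in the gene. Neighbours tended to be alike: the next control peak downstream was shared in 52.6% of cases after a shared peak and in 41.9% after another peak.

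Within the 5463 genes that combined them, shared and other peaks come from transcripts of the same gene. By the median of each gene, shared peaks were wider in 5018 genes (91.9%) and narrower in 381 (6.97%). They had the higher fold enrichment in 4384 genes (80.2%) and the lower in 1072 (19.6%). They lay further 3' in 2556 genes (46.8%) and further 5' in 2120 (38.8%), with 787 ties. In the 1680 genes with 1 shared and 1 other peak, the shared peak was the 3' one in 56.1% (53.7 to 58.5%). The widest control peak of a gene with several was shared in 72.0% of 8596 genes and the peak with the best p-value in 75.0%. Over all control peaks 45.7% were shared, with 92.2% in the broadest width class and 97.1% in the class of best p-values. Broad peaks are met more easily, so the values by width are partly built into the rule.

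The gene with the most shared peaks, ENSG00000203832.6, had 17 among its 18 control peaks, between 148251597 and 148325191 on chromosome 1 (minus strand). It was followed by a gene on the plus strand of chromosome 1, between 144162091 and 144224061, with 15 of 16. A gene with 12 of 13 lay close by, between 145314974 and 145368894 (plus strand). The shared peaks of these 3 genes were narrow, with medians of 211, 211 and 241 bases, and every one of them had several blocks. Fold enrichment was even along them, from 3.51 to 7.22, from 2.98 to 5.65 and from 3.90 to 6.29. Neighbouring shared peaks lay at median distances of 4754.5, 4723.5 and 4735 bases, with ranges of 3195 to 4824, 3162 to 6409 and 3181 to 6234. Among all control peaks, 17.5% were shared in the width class of 151 to 211 bases and 45.7% in that of 211 to 326 bases. The shared peaks of the 3 genes fell in both, with widths of 181 to 301, 151 to 271 and 210 to 330 bases. Whether reads of near-identical copies were divided among these peaks was not analysed here, so they are uncertain as separate sites.

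The other genes with many shared peaks had peaks of uneven size. The gene ENSG00000140836.14 on chromosome 16, between 72820950 and 73092938 (minus strand), had 13 shared of 14 control peaks, with widths from 181 to 1229 bases and fold enrichment from 2.90 to 110. A gene on chromosome 2 between 21224331 and 21266945 (minus strand) had 12 of 15, with fold enrichment from 1.62 to 58.7. A gene on chromosome 11 between 62284307 and 62323677 (minus strand) had 11 of 18, with widths from 181 to 2160 bases. Genes on chromosome 4 between 187509536 and 187647876 (minus strand) and on chromosome 2 between 54683422 and 54895793 (plus strand) had 10 each, of 18 and of 11 control peaks. In these 5 genes strong and weak shared peaks stood side by side in the same gene.

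Fold enrichment was higher in shared than in other control peaks, with medians of 9.92 and 4.60 and interquartile ranges of 5.28 to 20.9 and 2.67 to 10.3. The median log10 p was -51.3 in shared and -5.12 in other control peaks. In 5 equal classes by p-value, 2.41% of peaks in the worst class and 97.1% in the best were shared. By fold enrichment the gradient was not even, with 17.5%, 36.9%, 54.4%, 47.1% and 72.9% from the lowest to the highest class. The shorter list that the authors deposited held 96.4% of shared peaks and 46.5% of other control peaks.

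The same contrast was present to different degrees in the other lists. Peaks that overlapped a shared control peak had a median fold enrichment of 8.96 in the METTL3 list, against 4.86 in the rest of that list. METTL14 peaks had medians of 7.50 and 5.75, SETD2 #1 peaks 6.52 and 3.64, SETD2 #2 peaks 4.53 and 2.85 and second control peaks 5.23 and 3.18. In the WTAP list they were 7.09 and 6.80, the closest pair. In width the WTAP list had the contrast too, with medians of 301 and 180 bases.

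**Figure D4:**
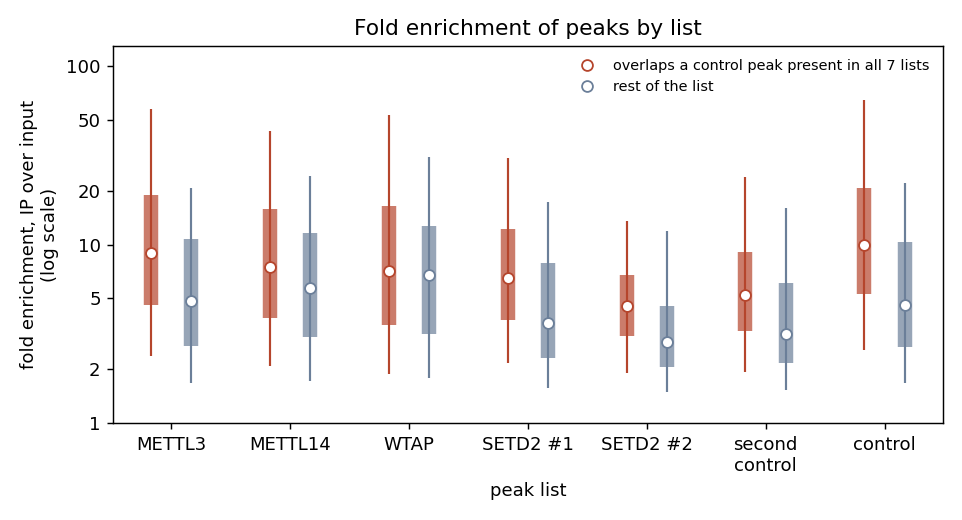
Fold enrichment of IP over input (vertical axis, log scale) in each list, for peaks that overlap a shared control peak and for the rest of the list. Points are medians, thick bars run from the lower to the upper quartile and thin lines from the 5th to the 95th percentile of peaks. The medians lie furthest apart in the control list (9.92 and 4.60) and closest in the WTAP list (7.09 and 6.80).

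The peaks with the most steadily high fold enrichment were picked by their lowest rank in any list. The 10 named stood at or above percentile 97.5 of each of the 7 lists. The leading one, on chromosome 19 from 48997143 to 49002664 (minus strand, gene ENSG00000142235.8, 2239 bases in 2 blocks), had a fold enrichment of 150 in METTL3, 152 in METTL14, 659 in WTAP, 184 in SETD2 #1, 46.2 in SETD2 #2, 154 in the second control and 436 in the control list. The value was highest in WTAP and lowest in SETD2 #2. The next, on chromosome 7 from 4831612 to 4832389 (plus strand, 778 bases in 1 block), had 126, 211, 116, 84.2, 22.5, 64.9 and 153 in the same order of lists. Another, of 2995 bases in 5 blocks and also on chromosome 7 (6681935 to 6694116, plus strand), had 570 in METTL3, 85.3 in METTL14, 136 in WTAP, 71.1 in SETD2 #1, 44.4 in SETD2 #2, 36.3 in the second control and 209 in the control list. The peak on chromosome 19 from 2252311 to 2255320 (minus strand, 1020 bases in 6 blocks) reached 932 in WTAP and 209 in METTL3, against 136 in the control list, and 19.4 in SETD2 #2, against 48.9 in the second control. Its width varied likewise, with 1200 bases in WTAP and 421 in both SETD2 #2 and the second control. High enrichment did not need a broad peak: on chromosome 10 a peak of 299 bases (99079143 to 99079441, plus strand) had a fold enrichment of 92.8 in METTL3, 51.9 in METTL14, 71.2 in WTAP, 84.2 in SETD2 #1, 24.4 in SETD2 #2, 32.8 in the second control and 204 in the control list, and 269 of its bases were common to all lists. The values of the SETD2 #2 list were the lowest of the 7 for 9 of these 10 peaks. Over all shared peaks that list was lowest for 42.5%, and its whole-list median of 3.81 was the lowest of the 7. Of the 10 peaks, 5 were 3'-most, 3 lay between others and 2 were 5'-most in their gene. Of all 15404 shared peaks, 4353 were 3'-most, 4560 lay between others, 3935 were 5'-most and 2556 were only peaks.

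The best supported shared peaks by p-value were other ones. All 5 were the only control peak of their gene, as were 2556 of the 15404 shared peaks, and 4 of the 5 kept at least 88.6% of their bases in all lists. Some of them had a log10 p of minus infinity in the METTL3 or control list, so the order among the best p-values is uncertain. A peak on chromosome 6 from 31783241 to 31785514 (plus strand, 1 block of 2274 bases) had the most constant outline, with 2274 bases in the METTL3, METTL14, SETD2 #1 and SETD2 #2 lists and 2214 in WTAP and in the second control. Its fold enrichment was 65.4 in METTL3, 34.9 in METTL14, 62.4 in WTAP, 29.9 in SETD2 #1, 16.4 in SETD2 #2, 16.0 in the second control and 68.4 in the control list. On chromosome 12 a peak of 7 blocks (6874711 to 6880118, plus strand) had 1446 bases in the METTL3, METTL14, WTAP and control lists, 1416 in SETD2 #1, 1299 in SETD2 #2 and 1387 in the second control. Its fold enrichment was 138 in METTL3, 93.2 in METTL14, 83.1 in WTAP, 38.4 in SETD2 #1, 12.3 in SETD2 #2, 25.7 in the second control and 113 in the control list. The enrichment thus varied more between lists than the outline did. A peak on chromosome 11 from 116706467 to 116708458 (minus strand, 3 blocks) reached a log10 p of -5940 or better in every list with a fold enrichment of only 6.46 to 23.2.

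At the other end were shared peaks that were barely enriched somewhere. The weakest by rank, 241 bases wide on chromosome 2 (21232816 to 21233056, minus strand), lies in the gene with 12 shared peaks named above. It had a fold enrichment of 1.76 in METTL3, 1.24 in METTL14, 1.07 in WTAP, 1.46 in SETD2 #1, 2.68 in SETD2 #2, 1.53 in the second control and 2.05 in the control list. The WTAP value is that of a match of only 61 bases. A peak on chromosome 16 from 89627335 to 89628233 (plus strand, 899 bases) had 13.8-fold enrichment in the control list and 1.07-fold in the SETD2 #2 list. The SETD2 #2 match was only 60 bases wide, so its value covers a small part of the control peak. In the second control the match had 271 bases and 2.78-fold enrichment. Values in METTL3, METTL14, WTAP and SETD2 #1 were 6.67, 4.42, 5.34 and 3.20. No base of the control peak was common to all lists. In all, 1931 shared peaks (12.5%) were under 2-fold in at least 1 list.

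A shared peak had different fold enrichment from list to list. The ratio of the highest to the lowest of the 7 values had a median of 3.74, with 1.68 and 16.3 at the 5th and 95th percentile. The lowest value was in the SETD2 #2 list for 42.5% of shared peaks, in the second control for 19.6% and in WTAP for 14.5%, and the highest was in the control list for 32.3% and in METTL3 for 23.1%. At or above the list's median in all 7 lists were 5069 shared peaks (32.9%), and 2032 (13.2%) were below it in all. Over the 15404 shared peaks, Spearman's rho of fold enrichment was 0.75 to 0.85 between lists of the first set, 0.71 between SETD2 #2 and the second control, and 0.49 to 0.68 between lists of different sets. These values are across peaks, which share libraries and transcript levels within a list, and are given as a description.

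Set against its own control, the fold enrichment of a shared peak had a median ratio of 0.93 with METTL3, 0.79 with METTL14, 0.77 with WTAP, 0.74 with SETD2 #1 and 0.87 with SETD2 #2. The first 4 share the control list. The second control over the control gave 0.57, further from 1 than each of the 5 knockdowns. Ratios of the medians of whole lists were 1.03, 0.99, 1.03, 0.78 and 0.88 for the knockdowns in this order, and 0.64 for the second control. In the highest of 5 classes by fold enrichment in the control list the median ratio was 0.78 with METTL3, 0.60 with METTL14, 0.69 with WTAP, 0.49 with SETD2 #1 and 0.69 with SETD2 #2 over its own control. In the lowest class it was 1.17, 1.10, 0.96, 1.07 and 1.02 in the same order. The second control over the control, with no knockdown, had 0.32 in the highest and 1.16 in the lowest class, the widest span of the 6 ratios. Except for SETD2 #2 the classes are cut on the denominator of the ratio, which by itself tends to give lower ratios in higher classes.

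The ratio also differed by place in the gene. With SETD2 #1 the median was 0.59 for shared 5'-most peaks and 0.82 for shared 3'-most peaks, and with SETD2 #2 over its own control 0.71 and 0.94. The values for the 5'-most and 3'-most peaks were 0.88 and 0.95 with METTL3, 0.71 and 0.79 with METTL14 and 0.76 and 0.74 with WTAP, and 0.61 and 0.58 for the second control over the control. Because 5'-most peaks had the higher fold enrichment, the ratios were also taken within 5 classes of shared peaks by fold enrichment in the control used. Here the classes are cut on the denominator of every ratio, that of SETD2 #2 included. Fold enrichment was not matched further within a class, and the highest class of the control list held 1133 5'-most and 633 3'-most peaks. With SETD2 #1 the 5'-most peaks had the lower ratio in all 5 classes, from 0.92 against 1.00 in the lowest to 0.33 against 0.55 in the highest. With SETD2 #2 both were 1.10 in the lowest class, and the 5'-most peaks were lower in the other 4, down to 0.42 against 0.54 in the highest. With METTL3, METTL14 and WTAP the 5'-most peaks had the higher ratio in the 3 lowest classes and the lower in the 2 highest. The second control over the control gave the higher ratio for 5'-most peaks in all 5. These are single pooled lists, and the difference between them was not tested.

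Most shared peaks had a stretch that all 7 lists covered, and their edges varied. At least 1 base covered in all 7 lists was found in 15142 of them (98.3%), while 262 (1.70%) met a peak of each list without a base common to all. The common part had a median of 239 bases, with an interquartile range of 150 to 390, and made up a median of 58.8% of the control peak (interquartile range 39.0 to 75.1%). It reached at least 90% of the peak in 1143 shared peaks (7.42%) and stayed under 50% in 5528 (35.9%). The common share was much the same for 5'-most (59.5%), 3'-most (58.8%) and only peaks (60.1%).

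**Figure D5:**
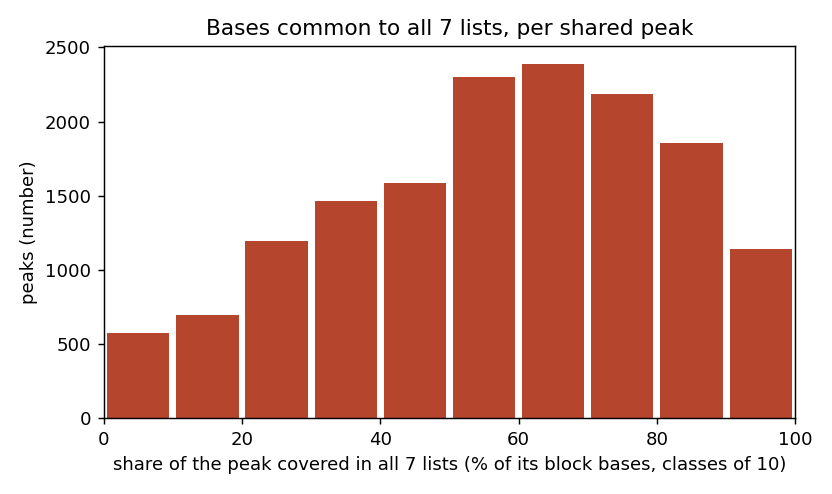
Shared peaks (vertical axis, number) by the share of their block bases that lay in peaks of all 7 lists (horizontal axis, percent, in classes of 10). The fullest class, from 60 to 70%, holds 2391 of the 15404 peaks, and 578 peaks are in the class under 10%.

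List by list, the median share of a shared peak that was covered was 91.9% in METTL3, 85.8% in METTL14 and in WTAP, 88.9% in SETD2 #1, 79.0% in SETD2 #2 and 83.4% in the second control. The matching peak was narrower than the control peak for 58.7% of shared peaks in METTL3, 69.3% in METTL14, 69.4% in WTAP, 68.0% in SETD2 #1 and 68.5% in the second control. SETD2 #2 peaks were narrower than their own control's in 47.4% and wider in 31.1%. Between 17.7% (METTL3) and 21.6% (second control) of shared peaks met 2 or more separate peaks in a list, of which only 1 was taken as the match. Shared peaks were also chosen from the control list, where broad peaks were shared more often. The part of both in the narrower matches was not tested. Exactly 1 partner in each of the 6 lists, which met no other control peak, was found for 9356 shared peaks (60.7%). The number of blocks was the same in all 7 lists for 86.9% of shared peaks of 1 block and for 26.9% of those with several.

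Where a shared peak had a single partner, its ends were compared in exonic bases. Of the ends that moved, 96.3% moved by a multiple of 30 bases within 1 base, so the outline is known only in steps of about that size. The 5' and 3' ends were at the same base in 42.3% and 42.7% of pairs with METTL3 and in 40.5% and 39.4% with SETD2 #1. In METTL14 the 3' end lay inside the control peak in 58.7% of pairs and the 5' end in 47.2%, and in WTAP in 57.5% and 48.4%. SETD2 #2 had the opposite order when set against the first control, 53.6% for the 3' end and 61.2% for the 5' end, as had the second control with 49.4% and 54.1%. Against its own control, SETD2 #2 had 33.3% and 34.7%. The METTL14 and WTAP lists thus had 3' ends inside the control peak more often than 5' ends, with no replicate to set the difference against.

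Shared peaks were spread over the genome. Chromosome Y and the mitochondrial chromosome were left out. The share of control peaks that were shared ran from 35.6% on chromosome 13 (155 of 435, 31.1 to 40.3%) to 52.7% on chromosome 20 (507 of 962, 49.5 to 55.9%), with 51.8% on chromosome 16. Chromosome 13 had a median peak width of 239 bases and chromosomes 16 and 20 had 299 and 300. The METTL14 and WTAP lists overlapped 55.2% and 57.0% of the control peaks of chromosome 13, against 70.2% and 71.2% genome-wide. The strands did not differ visibly, with 45.8% on the plus and 45.7% on the minus strand. Another control peak on the same strand overlapped 10.1% of shared and 6.72% of other peaks, and a control peak on the opposite strand 13.2% and 9.49%. Reads at such places cannot be assigned to a single gene from these files.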

How the data were processed

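Libraries came from sonicated mRNA with a stranded kit, per the labels' protocols. FastQC 0.11.5 and TopHat2 2.1.1 are listed, with the build hg19, per the submitters' processing notes. Each exomePeak list covers replicates 1 to 3, per the labels. The sources used here name neither its version nor its gene models. Each deposited table has, per the file headers, a p-value of IP against input, log10 values of p and FDR (used as scores) and a fold enrichment, which is a ratio. The largest FDR was 0.05.

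Rows with equal strand and blocks were counted once, which dropped 11 to 21 rows per list. Overlaps were found with bedtools 2.31.1, and other values computed in Python 3.11.15 (pandas 2.3.3, numpy 2.4.6, scipy 1.17.1). Strand handling, base counts and recovery of known shared peaks were tested on simulated lists. A shared peak's value in another list is that of the peak with the most bases in common. Named were the 10 peaks with the highest lowest-percentile fold enrichment over the lists, the 5 with the highest such percentile by p-value, the 8 genes with the most shared peaks, the 5 widest, the 5 with the most blocks, the 5 weakest and the 3 with the fewest covered bases, of which the text gives the leading ones. Planned gene lists were not used, as identifiers could not be paired with symbols. Members, lists and rules were chosen with earlier results of these data known. With 1 list per condition no test between conditions was made.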

Additional observations from a re-analysis of the deposited data

How the results depend on the processing

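No paired analysis was possible because each list pools replicates 1 to 3, and for the same reason no replicate could be left out. Read depth, which sets what weak peaks could be called, is not known. Of the recomputed values 25 were labelled as close to those reported, 25 moved and 1 reversed. The limit for counts was wide: 10490 shared peaks against 15404, and 6472 genes against 9357, were labelled close. Means within classes are weighted by shared peaks, and plain means, with each class weighted alike, were added after seeing the data. The number of shared peaks, 15404, was 9545 when at least 50% of the control peak had to be covered by 1 peak, 8932 when at least 50% of both peaks had to be, and 10016 with fold enrichment of at least 3. Other settings gave 10490 to 19163, and the number of genes with a shared peak was 6472 to 10488. The difference in median width, shared minus other, was 269 bases. It was 178 and 179 with the 50% overlaps, 241 with a log10 FDR of at most -5, 302 with fold enrichment of at least 3, 179 with the second control list counted, 211 with the first set of 5 lists and 179 within p-value classes (plain mean 111). The difference in multi-block share, 23.8 percentage points, was 19.3 and 19.5 with the 50% overlaps, 17.8 with that FDR, 20.3 with that fold enrichment, 17.7 in the shorter lists, 10.7 with the second control counted, 25.5 in the first set, 9.73 within width classes (plain mean 10.8) and 2.90 within p-value classes (plain mean 6.80), where it was 16.6, 6.61, 6.42, 7.06 and -2.66 from the worst to the best class. The difference in 3'-most share, 5.31 points, was 1.66 with the second control counted, 2.46 in the first set and 1.97 within p-value classes, where it was -6.42, 1.26, -6.08, -4.43 and 10.5 by class and the plain mean reversed to -1.03. The cause of these shifts was not tested.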
